A study of Mus musculus with 2 samples.

Results

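Mir139 is a mouse microRNA (miRNA) gene in the Pde2a locus, and its reads were followed here across both small RNA libraries of hippocampus. It was selected on its read counts in these same libraries, which had placed it among the most abundant miRNA genes, and it is 1 gene of the 2202 in the count tables. The row was found by its Ensembl identifier, ENSMUSG00000065446.1, to which the GENCODE M21 annotation gives the name Mir139. Level, rank and ratio between libraries belong to the rule that chose the gene, so they are given as a description, with no test.

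The series held 1 group of 2 libraries, made from total RNA of hippocampus, labelled as layer of hippocampus tissue. The source was female, aged 36 days, of the strain B6CASTF1/J, a first-generation cross of C57BL/6J with CAST/EiJ. No treatment, genotype or age was contrasted. The labels number the libraries as biological replicates 1 and 2 and give them different biosample entries but the same donor entry. Whether they come from separate animals is not settled by the labels, and part of their spread may be technical. In a bulk sample, fewer cells of a type and less RNA per cell cannot be told apart.

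A miRNA gene is transcribed as a longer RNA with a hairpin, from which nucleases release a short duplex. One strand of the duplex, the mature miRNA, is loaded into an Argonaute protein and pairs with messenger RNAs, mainly through its seed, bases 2 to 8 from the 5′ end, and represses them. Pde2a, in which Mir139 lies, encodes a phosphodiesterase that degrades cGMP and cAMP, is stimulated by cGMP, and is known for high expression in forebrain neurons, the hippocampus among them. In human cancer cells, miR-139-5p has been described as a repressor of the growth factor receptor IGF1R and of NOTCH1.

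The hairpin and both mature arms are shown because each deposited count stands for the whole hairpin, which can give rise to either arm. The sequences are from RefSeq (build GRCm38.p6), 5′ to 3′. Capitals mark the seed in the mature arms and the mature arms in the hairpin.
mmu-miR-139-5p: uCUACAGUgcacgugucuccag
mmu-miR-139-3p: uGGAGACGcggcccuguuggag
Mir139 hairpin: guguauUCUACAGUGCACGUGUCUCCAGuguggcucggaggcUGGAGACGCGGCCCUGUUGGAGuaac

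The hairpin lies on the plus strand of chromosome 7, at chr7:101475376-101475443. The 5p arm covers bases 7 to 28 of the hairpin and the 3p arm bases 43 to 64. Each arm has 22 bases, and 14 bases separate them. GC content was 54.5% in the 5p arm and 68.2% in the 3p arm.

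The predicted fold of the 68-base hairpin, computed with RNAfold, had 25 base pairs and a free energy of -35.6 kcal/mol. Its longest unbroken helix had 12 base pairs, between bases 18 to 29 and bases 41 to 52. In each arm 20 of 22 bases were paired, 19 of them with the other arm. Of the 7 seed bases, 6 were paired in the 5p arm and 7 in the 3p arm. The hairpin was short and stable for its length: 18.1% of the 376 genes with at least 10 reads in both libraries had a shorter hairpin, and 16.0% had a lower energy per base. Mir139 had -0.524 kcal/mol per base, against a median of -0.436 over those 376 genes, and a GC content of 58.8%, against a median of 51.8%.

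**Figure D1:**
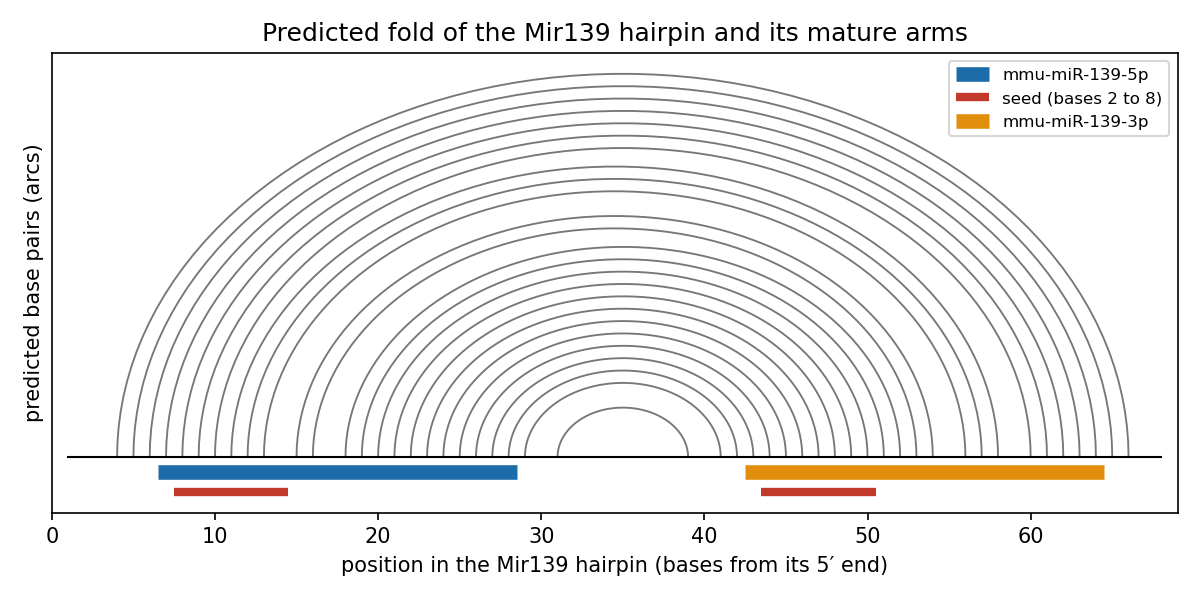
Predicted base pairs of the Mir139 hairpin, drawn as arcs over the position in the hairpin (bases from its 5′ end), with the 5p arm in blue, the 3p arm in orange and their seeds in red below the line. The 25 arcs nest in 1 stem, and the longest unbroken helix, of 12 pairs, joins the end of the 5p arm to the start of the 3p arm.

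Mir139 had no close relative among the annotated miRNAs. None of 1677 other mature mouse miRNAs in the RefSeq table shared the seed of the 5p arm or of the 3p arm. An unshared seed was common, however, and 72.1% of these miRNAs had one. Over bases 2 to 7, 1 other miRNA, mmu-miR-6397, shared the seed of the 3p arm, and its gene Mir6397 had 0 reads in both libraries. These sequences show where the shared stretch ends.
mmu-miR-139-3p: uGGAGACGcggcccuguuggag
mmu-miR-6397: uGGAGACUuucaguggaguga

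The mature miRNA closest to the 5p arm, mmu-miR-370-5p, had 14 identical bases of 22 in the best ungapped alignment and a longest shared run of 5 bases. The closest to the 3p arm, mmu-miR-6968-5p, also had 14 of 22, with a longest shared run of 8 bases. No other annotated miRNA hairpin holds a stretch of 20 bases found in Mir139, whereas 49.4% of the 2202 genes share such a stretch with another. Among the 20 genes with the highest mean CPM, however, only 1 shared such a stretch, so Mir139 was like most abundant genes in this. A full match to either arm was found in 1 gene, Mir139 itself, on either strand of 141767 annotated transcripts. Copies outside annotated transcripts were not analysed here. The count tables keep reads with several places in the genome apart from gene counts, so genes without such copies keep reads that multi-copy genes can lose.

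Mir139 sat inside introns of Pde2a, on the same strand. Pde2a (ENSMUSG00000110195.1) spans chr7:101421691-101512827 on the plus strand, and its annotated start lies 53.7 kb upstream of the hairpin. Of its 12 annotated transcripts, 10 span the hairpin, among them all 4 coding ones, and in each of the 10 the hairpin is intronic. In the 4 coding transcripts it is in intron 2, of 29902 bases, at a distance of 23907 bases from the exon before it and 5927 bases from the exon after it. A predicted coding gene, Gm45837, at chr7:101410886-101512819 on the same strand, also holds the hairpin in an intron. Messenger RNA was not measured in these libraries, so the level of Pde2a is not known here.

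**Figure D2:**
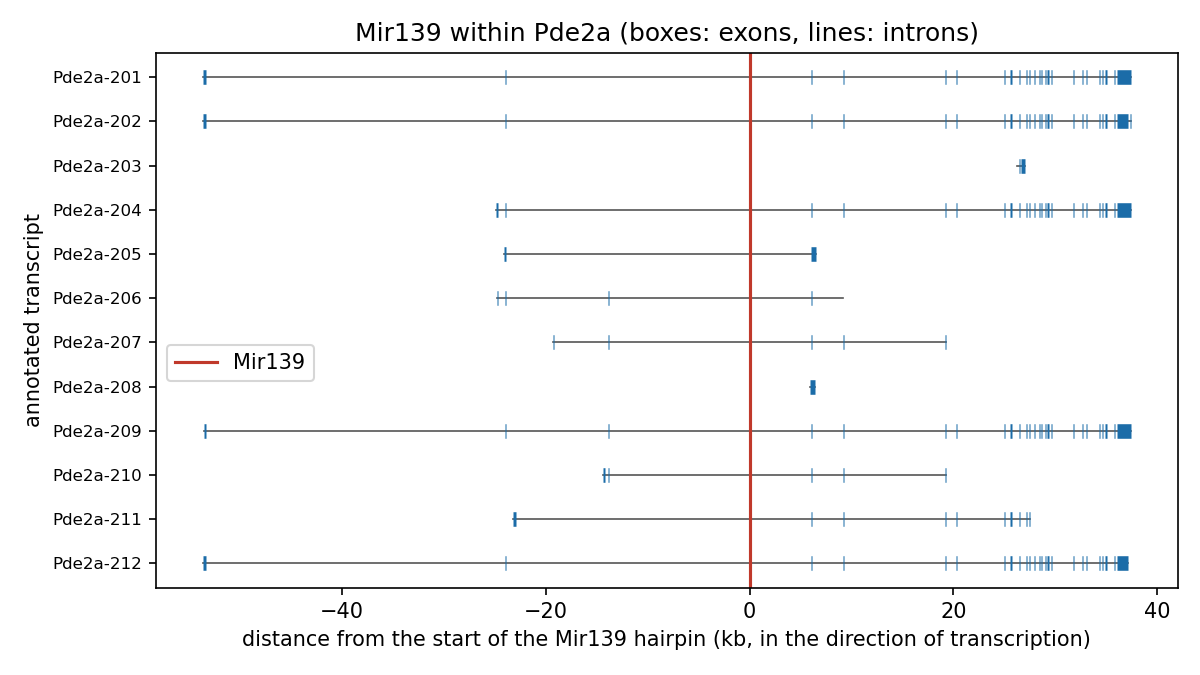
Exons (boxes) and introns (lines) of the 12 annotated Pde2a transcripts against the distance from the start of the Mir139 hairpin (kb, in the direction of transcription), with Mir139 as a red line. The line crosses introns of 10 transcripts and no exon, and in the longest transcripts most exons lie downstream of it.

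Mir139 was among the 4 genes with the most reads placed once in both libraries. Replicate 1 held 166001 sense reads of Mir139, and replicate 2 held 332043. All miRNA genes together had 2928141 sense reads in replicate 1 and 3644157 in replicate 2, so the level, in counts per 1000000 of these reads (CPM), was 56692 in replicate 1 and 91117 in replicate 2. The mean was 73904 ± 24342 CPM (SD, n = 2). A read of a small RNA library spans a whole mature miRNA, so levels of different genes are set side by side as CPM without division by length.

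As a share, Mir139 took 5.67% of the assigned reads of replicate 1 (exact Clopper-Pearson 95% interval 5.64% to 5.70%) and 9.11% of those of replicate 2 (9.08% to 9.14%). This is 1 read in 17.6 in replicate 1 and 1 in 10.98 in replicate 2. Rows that name no gene took 69.5% of all reads in replicate 1 and 65.3% in replicate 2. Of all reads in the table, those rows included, Mir139 took 1.73% in replicate 1 and 3.17% in replicate 2. Intervals and limits cover counting error only, since no molecular identifiers were used.

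All of these reads lay on the strand of the hairpin. The antisense column held 0 reads at Mir139 in both libraries, which allows up to 0.00181% of its sense reads in replicate 1 and 0.000903% in replicate 2. The count without strand equalled the sense count in both libraries. No other annotated miRNA gene overlaps Mir139. The deposited counts are per hairpin, so the 5p and 3p arms were not told apart.

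By mean CPM Mir139 held rank 4, with rank 4 in replicate 1 and rank 3 in replicate 2. The 3 genes above it were let-7 genes, a family known for high levels in differentiated tissue. Mirlet7g had 141801 CPM in replicate 1 and 99084 CPM in replicate 2, and Mirlet7b had 102692 CPM in replicate 1 and 109414 CPM in replicate 2, above both values of Mir139. Mirlet7i had 82650 CPM in replicate 1 and 68637 CPM in replicate 2, within the range of Mir139, so the order of these neighbours was not fixed. Within a library, Mir139 had 0.686 reads per Mirlet7i read in replicate 1 and 1.33 in replicate 2.

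The 5 genes below Mir139 had lower levels than it in both libraries, and none overlapped its range. Mirlet7d had 51741 CPM in replicate 1 and 41677 CPM in replicate 2. Mir127, an imprinted gene on chromosome 12, had 37656 CPM in replicate 1 and 46305 CPM in replicate 2. Mir139 had 1.10 reads per Mirlet7d read in replicate 1 and 2.19 in replicate 2, so the gap below it was wide in replicate 2 and narrow in replicate 1. Mir744, in an intron of Map2k4, Mirlet7e and Mir99a followed, with means of 38161 ± 287 CPM, 27756 ± 616 CPM and 24159 ± 9146 CPM (SD, n = 2). The mean of Mir139 was 1.58 times that of Mirlet7d and 3.06 times that of Mir99a.

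**Figure D3:**
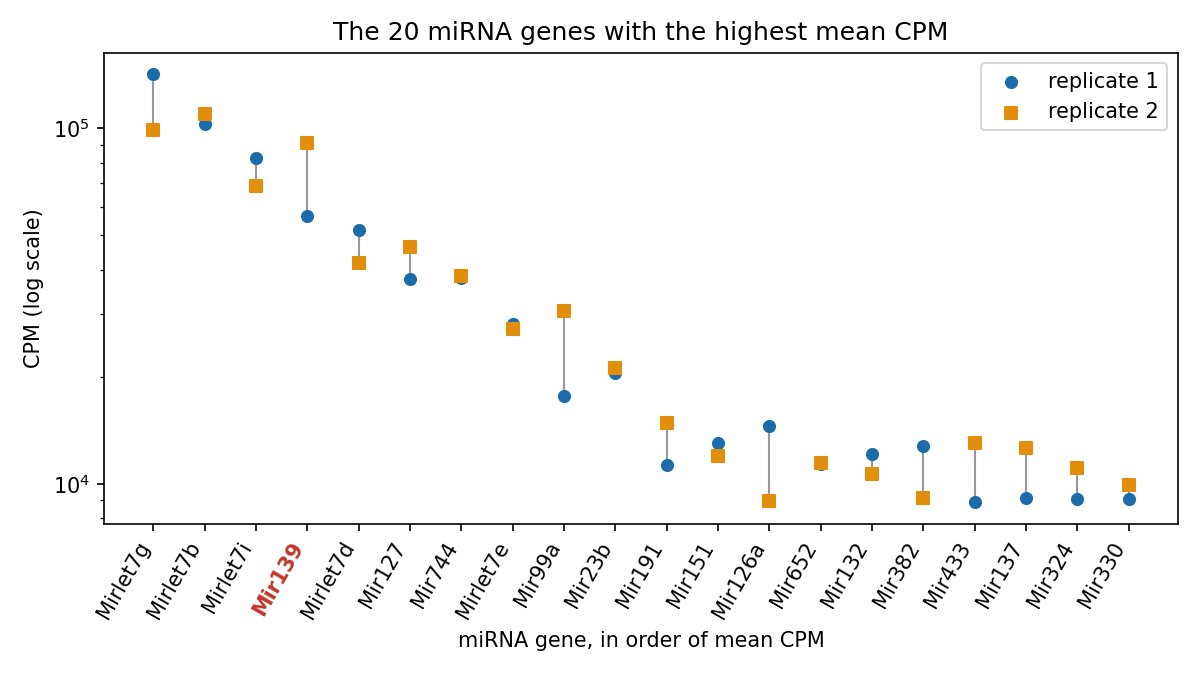
CPM (log scale) of the 20 miRNA genes with the highest mean CPM, with replicate 1 as circles and replicate 2 as squares, joined by a line for each gene. Mir139 stands at rank 4, with 56692 CPM in replicate 1 and 91117 CPM in replicate 2, and its points enclose those of Mirlet7i.

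Mir139 had the higher level in replicate 2. The ratio of replicate 1 to replicate 2 was 0.622 in CPM (exact binomial 95% interval 0.619 to 0.626), a log2 ratio of -0.68. The interval covers counting error only. Each side of the ratio is 1 library, with no replicate behind it.

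A ratio of this size was not rare. Of 399 genes whose mean count was 10 or more, 151 (37.8%) were past 1.5-fold in either direction. Past 1.5-fold with the higher value in replicate 2, as Mir139 was, were 21.1%, and with the higher value in replicate 1, 16.8%. Among the 95 genes with a mean of at least 1000 CPM, 26.3% were past 1.5-fold in either direction and 13.7% with the higher value in replicate 2, against 12.6% with the higher value in replicate 1. By the size of the ratio, in either direction, Mir139 stood 118th of the 399 genes and 20th of the 95. The median size was 1.34-fold over the 399 genes and 1.23-fold over the 95. Of the 9 genes with the highest means, 2 were past 1.5-fold, Mir139 and Mir99a. The ratio of Mir99a was 0.578, with 17692 CPM in replicate 1 and 30627 CPM in replicate 2.

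**Figure D4:**
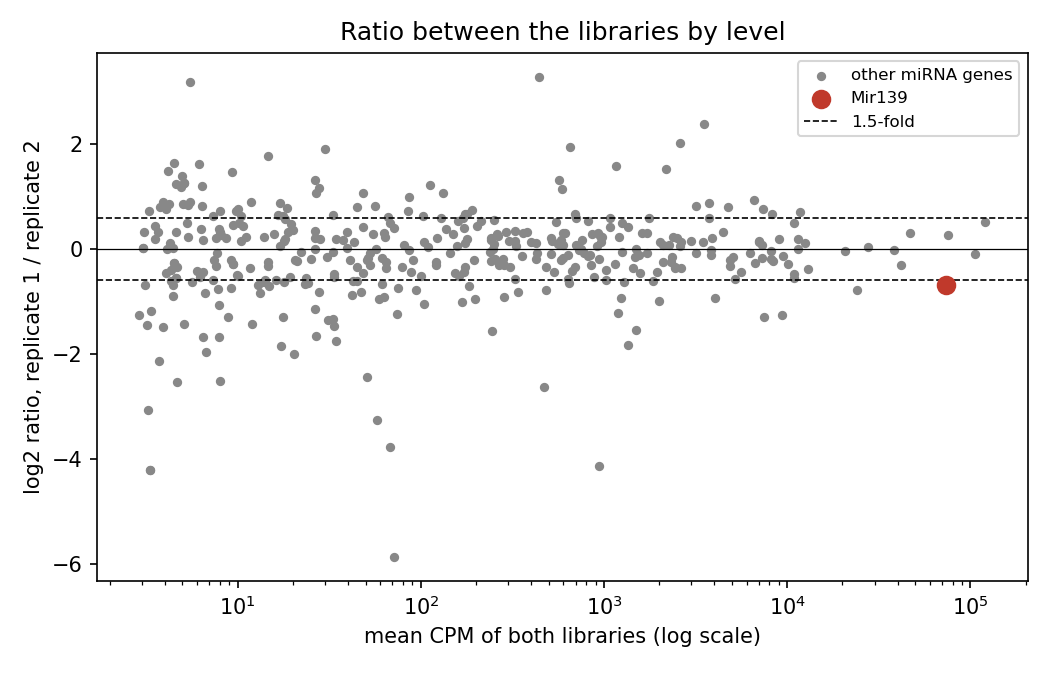
Log2 ratio of replicate 1 to replicate 2 against the mean CPM (log scale) for the 398 miRNA genes with reads in both libraries and a mean count of 10 or more, with Mir139 in red and dashed lines at 1.5-fold. Mir139, at -0.68, lies below the lower line at the right end of the plot, and larger ratios occur at lower levels.

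Because Mir139 was so abundant, its difference made up a large part of the CPM gained in replicate 2. It had 34425 CPM more in replicate 2, a larger gain than that of any other gene, and held 27.0% of the summed gains of all genes with the higher CPM in replicate 2. Mir99a came next, with 12935 CPM. Mirlet7g moved the other way, with a difference of -42718 CPM between replicate 2 and replicate 1. Leaving Mir139 out of the totals shifted the log2 ratio of each other gene by -0.05, a small change.

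The ratio stayed below 1 under each of 8 other totals and scalings, from 0.546 with all reads of the table as the total to 0.694 with the let-7 and Mir98 genes left out of it. With those let-7 and Mir98 genes left out, Mir139 was 1.44-fold higher in replicate 2, under the 1.5-fold used above.

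**Figure D5:**
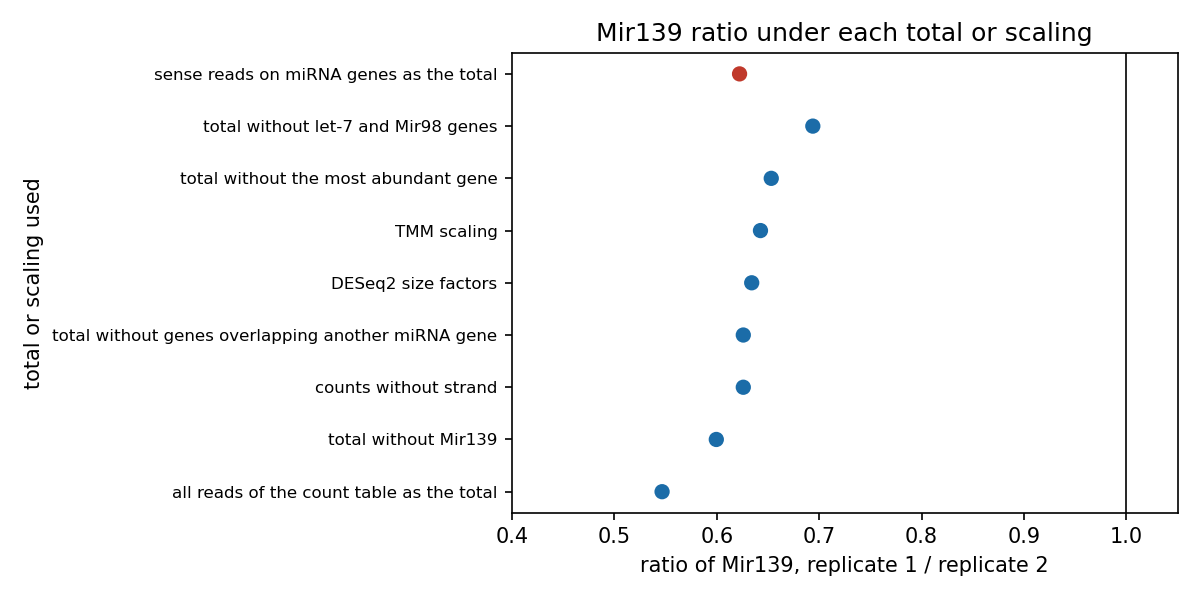
Ratio of Mir139 in replicate 1 to replicate 2 under the total used in the text (red) and 8 other totals or scalings (blue), with a line at a ratio of 1. All 9 points lie left of the line, between 0.546 and 0.694.

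The genes with a mean of at least 1000 CPM whose log2 ratios were closest to that of Mir139 were Mir874 (-0.64), Mir342 (-0.61), Mir150 (-0.60), Mir487b (-0.58) and Mir99a (-0.79). The measure is the difference in 1 log2 ratio over 2 libraries, and it carries no more than that. Their means ranged from 1022 CPM for Mir150, a miRNA known from lymphocytes, to 24159 CPM for Mir99a. Mir874 lies in an intron of Klhl3 and Mir342 in an intron of Evl.

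Reads of chromosome 7 were mostly those of Mir139. It held 75.8% of the CPM of the 153 miRNA genes of that chromosome in replicate 1 and 82.6% in replicate 2. The next gene, Mir330, had 9041 CPM in replicate 1 and 9945 CPM in replicate 2.

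Within 5 Mb of Mir139, 7 other miRNA genes are annotated, of which 2 had reads. Mir326, in an intron of Arrb1, which encodes a beta-arrestin, had 858 CPM in replicate 1 and 538 CPM in replicate 2. Its log2 ratio of 0.67 had the opposite sign to that of Mir139. The log2 ratio of Mir3102 was 0.17, with 616 CPM in replicate 1 and 549 CPM in replicate 2. The other 5, Gm22655, Gm25171, Gm23550, Gm25774 and Gm26506, had 0 reads in both libraries, which allows up to 1.02 CPM in replicate 1 and 0.823 CPM in replicate 2 for reads placed once.

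Among the 741 miRNA genes that lie in an intron of a protein-coding gene on the same strand, Mir139 was second in both libraries, below Mirlet7g in Wdr82. It held 13.4% of the CPM of this class in replicate 1 and 21.6% in replicate 2. At least 10 reads in both libraries were found for 152 of the 741 (20.5%), against 376 of all 2202 genes (17.1%). The median level of these 152 was 76.9 CPM, and that of the 224 genes with such reads that were not in such an intron was 195 CPM. A gene that touched an exon of any annotated transcript of its host was not counted as intronic. Introns of noncoding genes were not counted either, so the 224 can include genes in other introns.

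Set beside miRNA genes of introns in neuronal genes, a list of 24 drawn up from general knowledge, Mir139 had about as many reads as all of them together. The list summed to 58810 CPM in replicate 1 and 76184 CPM in replicate 2, and Mir139 stood at 0.964 and 1.20 times that sum in replicates 1 and 2. Mir151, in an intron of Ptk2, led the list with 12986 CPM in replicate 1 and 11970 CPM in replicate 2. Mir324 had 9065 CPM in replicate 1 and 11043 CPM in replicate 2, and Mir330 followed. Under the same intron rule, 3 members of the list, Mir324, Mir330 and Mir3085, were in no intron of a protein-coding gene on their strand. The name of the list is a label, since expression of the hosts was not measured. That hosts such as Ptk2, Ctdsp1, Mest and Srebf2 are neuronal was not checked, and Mir338 is also on the oligodendrocyte list below.

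Of the 24 listed genes, 11 were past 1.5-fold with the higher value in replicate 2, as Mir139 was, 3 with the higher value in replicate 1, and 10 were within 1.5-fold, beside shares of 21.1% and 16.8% over all 399 genes in the same order. Their median log2 ratio was -0.50, against -0.03 over all 399 genes. The list holds 4 genes in introns of Htr2c, the gene of a serotonin receptor, and all 4 were among the 11. The members of the list therefore do not stand for separate transcripts. Mir1912, 1 of these 4, had 0 reads in replicate 1 and 20 in replicate 2. It passed the minimum mean count of 10 only through replicate 2, and its ratio rests on the 3 counts set for 0. One of the 4, Mir448, is also on the choroid plexus list, whose sum was higher in replicate 2 as well, and its part in the shift was not tested. Mir1298, the most abundant of these, had 101 CPM in replicate 1 and 1783 CPM in replicate 2.

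Neuronal miRNAs were well represented in both libraries. The 16 listed neuron genes summed to 38278 CPM in replicate 1 and 43636 CPM in replicate 2, and 13 had at least 10 reads in both. Mir132, an activity-regulated gene, had 12153 CPM in replicate 1 and 10636 CPM in replicate 2, and Mir137 had 9112 CPM in replicate 1 and 12631 CPM in replicate 2. Mir128-1 had 4326 CPM in replicate 1 and 10622 CPM in replicate 2. The median log2 ratio of the 13 neuron genes with a mean count of 10 or more was -0.44, against -0.03 over all 399 genes. Of these 13, 4 were past 1.5-fold with the higher value in replicate 2 and 2 with the higher value in replicate 1. Over all 399 genes the shares were 21.1% and 16.8%, in the same order. The 2 higher in replicate 1 were Mir138-1 and Mir138-2. Mir138-1 had 6059 CPM in replicate 1 and 3502 CPM in replicate 2, and Mir138-2 had 4030 and 2291 CPM in the same order. The list overlaps the list of 24 above, which also holds Mir128-1, Mir128-2, Mir153, Mir218-1 and Mir218-2. Mir128-1, Mir128-2 and Mir218-1 are among the 4, so the medians of these lists are not from separate genes. The 3 Mir124a genes, which encode a defining neuronal miRNA, each share a stretch of 20 bases with another annotated hairpin and had at most 8 reads in a library. Mir124a-2 was at 0 in replicate 2.

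Genes known from other cell types moved in both directions between the libraries, beside the ratio of Mir139. The cell type lists, the neuron list included, are from general knowledge. No member is specific to its cell type in gene-level counts, so the sums do not measure cell type content. Over all 399 genes, 16.8% were past 1.5-fold with the higher value in replicate 1 and 21.1% with the higher value in replicate 2, and the counts for these short lists stand beside those shares. The 9 astrocyte genes, led by Mir29a, Mir22 and Mir29c, summed to 18373 CPM in replicate 1 and 12836 CPM in replicate 2. Of them, 6 were past 1.5-fold with the higher value in replicate 1, against 1 with the higher value in replicate 2. Mir29c and Mir29b-2, both among the 6, lie close together on chromosome 1, with starts at 195037547 and 195037040. They need not stand for separate transcripts. The 5 oligodendrocyte genes, led by Mir23a, Mir219a-2 and Mir338, summed to 13402 CPM in replicate 1 and 10831 CPM in replicate 2, with 3 past 1.5-fold, all higher in replicate 1. The 5 vascular genes, led by Mir126a, Mir143 and Mir145a, summed to 19496 CPM in replicate 1 and 15611 CPM in replicate 2, with 2 past 1.5-fold, both higher in replicate 1. The vascular sum rested on Mir126a. Without it, the other 4 vascular genes summed to 4980 CPM in replicate 1 and 6642 CPM in replicate 2. The astrocyte and oligodendrocyte sums were larger in replicate 1 also without their leading genes.

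Genes of blood cells, microglia and choroid plexus had low sums. The 3 erythroid genes, Mir451a, Mir144 and Mir486, summed to 1176 CPM in replicate 1 and 340 CPM in replicate 2. All 3 were past 1.5-fold with the higher value in replicate 1. Mir451a and Mir144 lie close together on chromosome 11, with starts at 78073170 and 78073005, and need not stand for separate transcripts. The 5 microglia and leukocyte genes, led by Mir150, Mir146 and Mir142, summed to 1589 CPM in replicate 1 and 1881 CPM in replicate 2. Past 1.5-fold were 2 of them, Mir150 and Mir223, both higher in replicate 2. Mir223 had 1 read in replicate 1 and 23 in replicate 2, so it passed the minimum mean count only through replicate 2. Without Mir150 the microglia and leukocyte genes summed to 775 CPM in replicate 1 and 651 CPM in replicate 2. The 6 choroid plexus genes, led by Mir204, Mir34c and Mir449a, summed to 1158 CPM in replicate 1 and 2765 CPM in replicate 2, and 3 were past 1.5-fold with the higher value in replicate 2, against 1 with the higher value in replicate 1. Without Mir204 the choroid plexus sum was 565 CPM in replicate 1 and 664 CPM in replicate 2. No gene of these 7 cell type lists was at 0 in both libraries, and the part of these cell types in the ratio of Mir139 was not tested.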

How the data were processed

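The authors deposited raw counts, whole numbers of reads per miRNA gene in 3 columns, read here as without strand, sense and antisense from their totals. Assembly mm10 and GENCODE M21 are named in the deposited notes, while the sources used here do not name the aligner. Left out of the totals were 4 rows that name no gene. All 2202 identifiers matched GENCODE M21, which gave positions, introns, transcripts and hairpins. Mature arms are from RefSeq (GRCm38.p6, the same assembly). CPM used the sense total.

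Members and lists were chosen with earlier results of these data known. Named are Mir139, its neighbours in rank (5 each side, where there are so many), the 5 most alike ratios, genes within 5 Mb, the 3 leading members of each list, and genes close in sequence. A few further list members were named after their values were seen, and the 3′ UTR search in the closing section was added after the data were seen; transcripts other than that of Pde2a are not reported singly here. Calls past 1.5-fold need a mean count of at least 10, and a library at 0 was set to 3 counts. The libraries were no duplicate deposit (chi-square 463 times its degrees of freedom). The ratio and its interval were checked on simulated counts with counting error only, which leaves out the larger spread between these libraries. Scaling alternatives used edgeR 4.0.16 (TMM) and DESeq2 1.42.0, and folds RNAfold 2.7.2. Other tools were Python 3.11.15, pandas 2.3.3, scipy 1.17.1 and R 4.3.3.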

Additional observations from a re-analysis of the deposited data

How the results depend on the processing

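The mean level of Mir139 was 120267 CPM with the let-7 and Mir98 genes left out of the total, and 24477 with all reads of the table as the total. Under the other totals it moved by less than the spread between libraries, and with 1 library alone it ranged from 56692 to 91117 CPM. The ratio of replicate 1 to replicate 2 was 0.653 without the most abundant gene in the total, 0.599 without Mir139, 0.694 without the let-7 and Mir98 genes, 0.546 with all reads, 0.643 under TMM and 0.634 with DESeq2 size factors. It crossed 1 under none of these. The rank ranged from 3 to 4 with 1 library alone, and was 3 by CPM per base of hairpin, an alternative chosen after seeing the data. With a minimum mean count of 50, 93 genes were past 1.5-fold, and with a minimum of 100, 74 were, where fewer genes were tested. No paired analysis was possible because there was 1 group. With 2 libraries no test between them can stand for animals.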

Other observations

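Matches to the Mir139 seeds in annotated 3′ UTRs are given as a description of sequence, with no measure of messenger RNA behind them. The longest annotated 3′ UTR of each of 21045 protein-coding genes (GENCODE M21) was searched on the transcript strand. The 7-base match to the 5p seed, ACTGTAG, occurred in 11.0% of these genes, and the 8-base form with a closing A, which contains it, in 3.71%. The 7-base match to the 3p seed, CGTCTCC, which holds a CpG, occurred in 3.16% and its 8-base form in 0.993%. Per 1000000 bases of 3′ UTR, there were 87.0 matches to the 5p seed and 22.6 to the 3p seed.

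Pde2a, the gene around Mir139, had no 7-base match to either seed in its 3′ UTR of 1164 bases.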
